A study of Mus musculus with 11 samples.

Results

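The 10 liver genes of bile acid synthesis, conjugation, transport and sensing described here were followed in ribosome footprints of mice fed a High-Fat-High-Sugar (HFHS) diet or chow. They were chosen by Ensembl identifier, and all 10 were found among the 22019 genes of the count table. Their symbols come with that choice, since the table holds identifiers only. All 10 passed the filter on low counts in every comparison.

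Hepatocytes turn cholesterol into bile acids along a classic route, opened by Cyp7a1, and an alternative route, opened by Cyp27a1 and continued by Cyp7b1. Cyp8b1 adds the hydroxyl group that makes cholic acid rather than chenodeoxycholic acid and, in mice, its muricholic acid derivatives. The acids are joined to taurine, exported into bile, reabsorbed in the gut and taken up again from portal blood. The bile acid receptor FXR, encoded by Nr1h4, restrains synthesis.

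The livers came from male wild-type mice on HFHS diet or chow, and no other treatment is recorded. The labels used here give no strain, age or length of feeding. Liver pieces were digested with RNase I, and fragments of about 60 nt (disomes, left by a ribosome stacked on another) and about 30 nt (monosomes, left by single ribosomes) were cut from a gel. There were 2 HFHS and 3 chow disome libraries, and 3 HFHS and 3 chow monosome libraries. Replicates are labelled as separate samples with no word on separate animals, so the p-values rest on a spread between samples that may be technical.

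Total counts were 235748 to 238837 in HFHS disomes and 147212 to 279331 in chow disomes, and 1196240 to 1612324 in HFHS monosomes and 795145 to 1248781 in chow monosomes. The 10 genes held 50 to 259 counts each in HFHS disomes and 21 to 304 in chow disomes, and 161 to 3331 in HFHS monosomes and 83 to 2168 in chow monosomes. No 2 libraries of a group matched within sampling noise, with a chi-square per degree of freedom of at least 2.35. Libraries are called P, Q and R in HFHS and K, L and M in chow, in the alphabetical order of their sample barcodes, and a letter stands for the same barcode in disomes and monosomes. In both classes library K was the least like its group: this value was 11.4 and 9.31 for its monosome pairs against 3.37 for the remaining pair, and 6.59 and 6.61 for its disome pairs against 2.49. Results are therefore also given without K where that changes them. Levels below are CPM, the count scaled to library size, after TMM scaling within the comparison. They were not divided by coding length, so no level is compared between genes. A liver piece holds several cell types, and fewer hepatocytes and less RNA per hepatocyte cannot be told apart. Liver and other cell type markers were not analysed here.

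Promoters are shown for Cyp8b1, which rose in both footprint classes, for Akr1d1, and for Abcb11, the export pump that is a textbook target of FXR. Akr1d1 rose in disomes in the main fit, a call lost under several other settings given below. RefSeq (GRCm38.p6) gave 7 promoters for 6 of the 10 genes, each running from 250 bases before the gene's start to 50 after it. Cyp7a1, Cyp7b1, Baat and Slc27a5 had no entry. Capitals mark matches, on either strand, to CAAAGTCCA (a motif of the liver receptor HNF4), CAAGGNCA (a motif of the receptor LRH-1), the inverted repeat with a spacer of 1 base that FXR binds (AGGNCA, any base, TGACCT) and TATAAA (the TATA box).
Cyp8b1, chr9:121916256-121916555, minus strand: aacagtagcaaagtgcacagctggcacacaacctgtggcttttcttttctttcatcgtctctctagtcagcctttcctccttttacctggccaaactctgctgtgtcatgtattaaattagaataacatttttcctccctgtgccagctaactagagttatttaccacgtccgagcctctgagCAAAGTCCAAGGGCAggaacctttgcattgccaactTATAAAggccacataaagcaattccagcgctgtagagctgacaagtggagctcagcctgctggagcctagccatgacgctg
Akr1d1, chr6:37529923-37530222, plus strand: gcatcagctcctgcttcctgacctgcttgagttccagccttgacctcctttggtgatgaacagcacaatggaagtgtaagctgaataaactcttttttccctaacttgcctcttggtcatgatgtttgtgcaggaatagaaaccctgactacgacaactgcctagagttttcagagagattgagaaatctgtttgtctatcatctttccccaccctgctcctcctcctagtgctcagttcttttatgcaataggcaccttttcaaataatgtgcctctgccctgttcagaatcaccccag
Abcb11, chr2:69342567-69342866, minus strand: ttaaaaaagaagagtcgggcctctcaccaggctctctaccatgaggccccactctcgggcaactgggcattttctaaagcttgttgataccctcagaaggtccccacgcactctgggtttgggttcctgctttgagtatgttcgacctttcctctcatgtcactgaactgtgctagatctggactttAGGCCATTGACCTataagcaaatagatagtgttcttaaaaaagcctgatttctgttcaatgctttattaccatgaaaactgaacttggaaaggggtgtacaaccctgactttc

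In the Cyp8b1 promoter the HNF4 motif lay at -67 to -59 relative to the start and overlapped the LRH-1 motif at -60 to -53, with the TATA box at -31 to -26. In the Abcb11 promoter the inverted repeat lay at -63 to -51. The Akr1d1 promoter held none of the 4 motifs in this window. Of 32851 mouse promoters of this length, 0.475% held the HNF4 motif, 6.71% the LRH-1 motif, 0.0365% the inverted repeat and 13.6% the TATA box. A match describes letters and does not show binding. The motifs were chosen with the sequences in view, so these shares do not test the matches.

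**Figure D1:**
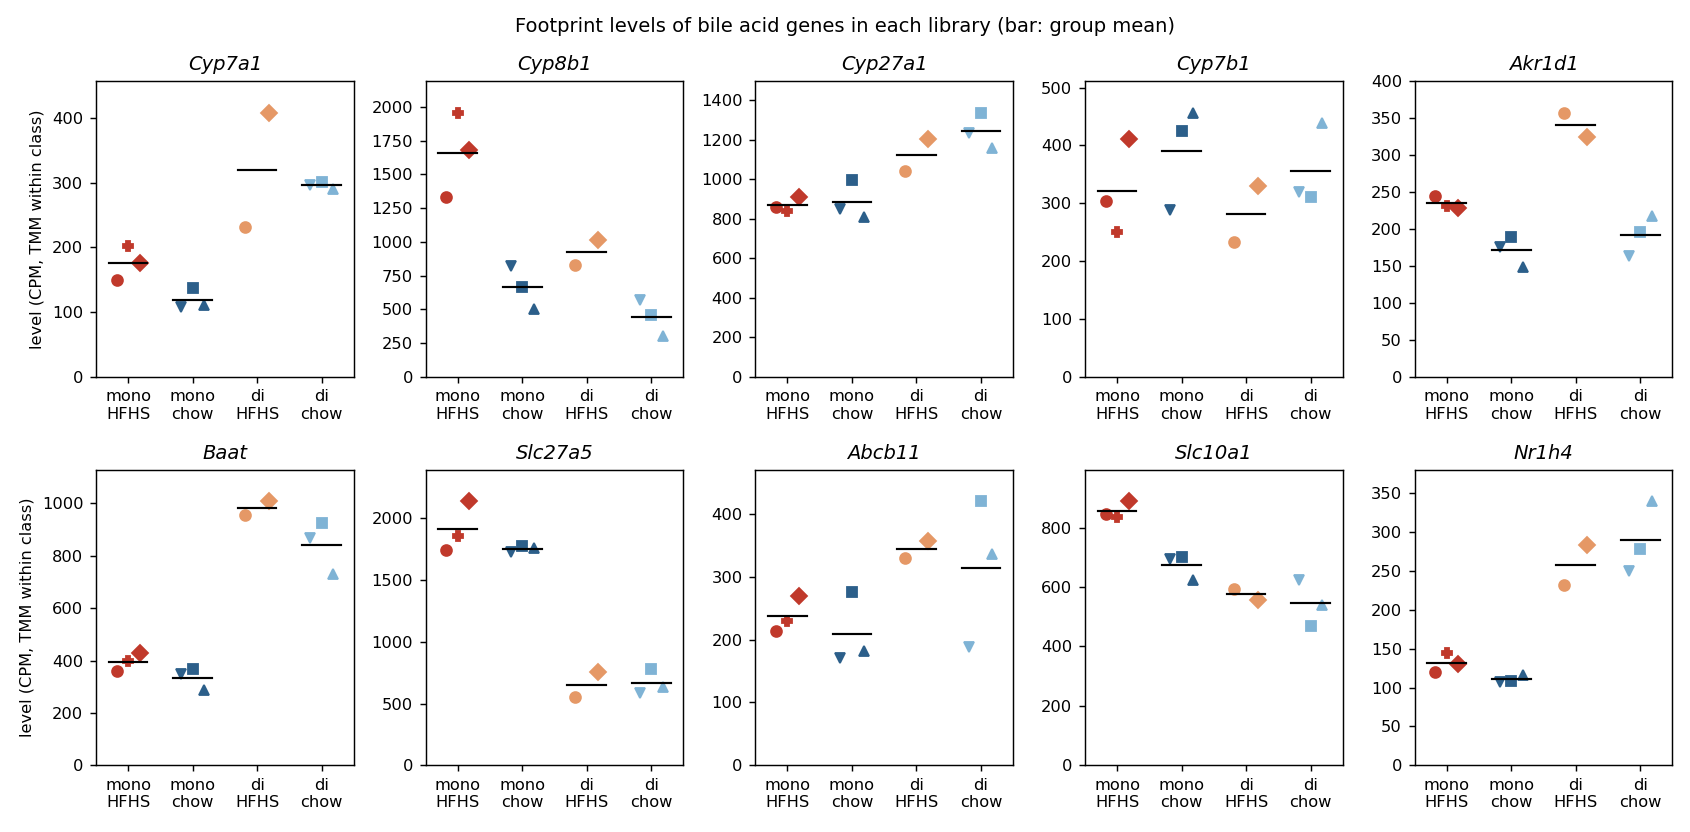
Level of each gene in each library, in CPM after TMM scaling within a footprint class (y axis, from 0), for HFHS and chow monosomes (mono) and HFHS and chow disomes (di). Each point is 1 library and bars are group means. Circles, plus signs and diamonds are the HFHS libraries P, Q and R, and downward triangles, squares and upward triangles are the chow libraries K, L and M. The classes were scaled apart, so monosome and disome points are not comparable here. All Cyp8b1 points lie higher in HFHS than in chow in each class.

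The comparison of HFHS with chow in monosomes asked which of these genes carried more or fewer single ribosomes on the HFHS diet. Cyp8b1 and Cyp7a1, the hydroxylase of cholic acid synthesis and the first enzyme of the classic route, rose 2.50-fold and 1.47-fold. Of the 10 genes, 0 fell in edgeR, 0 had an unadjusted p below 0.05 in that direction, and DESeq2 called 0 lower. The 2 genes that passed stand against a background of 3.02% called higher and 1.63% called lower among 6754 genes, 4.65% in all. The median log2 fold change of the 10 genes was 0.24, against -0.016 over all genes tested. Messenger RNA was not analysed here, so a change in transcript level and a change in ribosomes per transcript cannot be told apart.

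Cyp8b1 (ENSMUSG00000050445) had 1329, 1958 and 1684 CPM in the HFHS monosome libraries P, Q and R, against 824, 664 and 504 CPM in the chow libraries K, L and M. The groups did not overlap, and K was the chow library nearest to HFHS. The log2 fold change was 1.32 ± 0.17 (SE), with edgeR adjusted p = 0.000341, and ranked 40th from the highest of 6754. It was 1.50 without K (adjusted p = 5.63e-06). The call was weakest without L (1.32, edgeR adjusted p = 0.0433) and without the HFHS library R (1.31, edgeR adjusted p = 0.0116).

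Cyp7a1 (ENSMUSG00000028240) had 149, 202 and 176 CPM in HFHS monosomes (P, Q, R), against 108, 137 and 111 CPM in chow monosomes (K, L, M). The groups did not overlap, and the nearest libraries were P and L. The log2 fold change was 0.56 ± 0.15, with edgeR adjusted p = 0.0255. This call was lost without the chow library K (0.50, adjusted p = 0.159) or M (0.52, adjusted p = 0.164) and without the HFHS library Q (0.46, adjusted p = 0.127) or R (0.56, adjusted p = 0.0658). It was also lost with a minimum count of 50 (adjusted p = 0.0615) and with all 11 libraries in 1 fit (adjusted p = 0.0708).

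The enzymes of the alternative route did not pass. Cyp27a1 (ENSMUSG00000026170), the mitochondrial hydroxylase that opens it and also oxidizes the side chain, averaged 869 ± 35.3 CPM in HFHS monosomes and 885 ± 99.8 CPM in chow monosomes (SD, n = 3 each). Its log2 fold change was -0.027, with a 95% interval of -0.28 to 0.23. Cyp7b1 (ENSMUSG00000039519), which hydroxylates the resulting oxysterols, averaged 321 ± 82.5 CPM in HFHS monosomes and 390 ± 89.4 CPM in chow monosomes. Its log2 fold change was -0.28, with an interval of -0.68 to 0.12 and edgeR adjusted p = 0.51. Its HFHS libraries ran from 250 to 412 CPM and its chow libraries from 288 to 456 CPM, so the groups overlapped over most of their range.

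Akr1d1 (ENSMUSG00000038641), the reductase that sets the bent ring shape of bile acids, had 244, 232 and 228 CPM in HFHS monosomes (P, Q, R), against 175, 189 and 149 CPM in chow monosomes (K, L, M). The groups did not overlap. The log2 fold change was 0.46 ± 0.14 and missed the threshold (edgeR adjusted p = 0.0667). It passed without the chow library L (0.54, adjusted p = 0.0404).

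Genes of conjugation and transport had smaller differences. Baat (ENSMUSG00000039653), which joins bile acids to taurine, averaged 395 ± 33.6 CPM in HFHS monosomes and 335 ± 42.8 CPM in chow monosomes (log2 fold change 0.24, interval -0.049 to 0.52). Slc27a5 (ENSMUSG00000030382), which activates bile acids with coenzyme A before conjugation, averaged 1912 ± 201 CPM and 1752 ± 22.9 CPM in HFHS and chow monosomes (0.13, interval -0.097 to 0.35). Abcb11 (ENSMUSG00000027048), the pump that exports bile salts into the canaliculus, averaged 237 ± 28.9 CPM in HFHS monosomes and 209 ± 57.6 CPM in chow monosomes (0.18, interval -0.17 to 0.52). The HFHS and chow libraries of these 3 genes overlapped.

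Slc10a1 (ENSMUSG00000021135), which takes bile salts up from portal blood, had 844, 835 and 888 CPM in HFHS monosomes (P, Q, R), against 695, 703 and 623 CPM in chow monosomes (K, L, M). Its groups did not overlap, but its log2 fold change of 0.35 ± 0.12 did not pass (edgeR adjusted p = 0.114). Nr1h4 (ENSMUSG00000047638), which encodes FXR, had 120, 144 and 131 CPM in HFHS monosomes, against 107, 109 and 117 CPM in chow monosomes. The lowest HFHS library lay just above the highest chow library, and the log2 fold change of 0.25 ± 0.14 did not pass (adjusted p = 0.393). The HFHS and chow monosome libraries did not overlap for 5 of the 10 genes, where they did not for 21.6% of all genes tested.

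**Figure D2:**
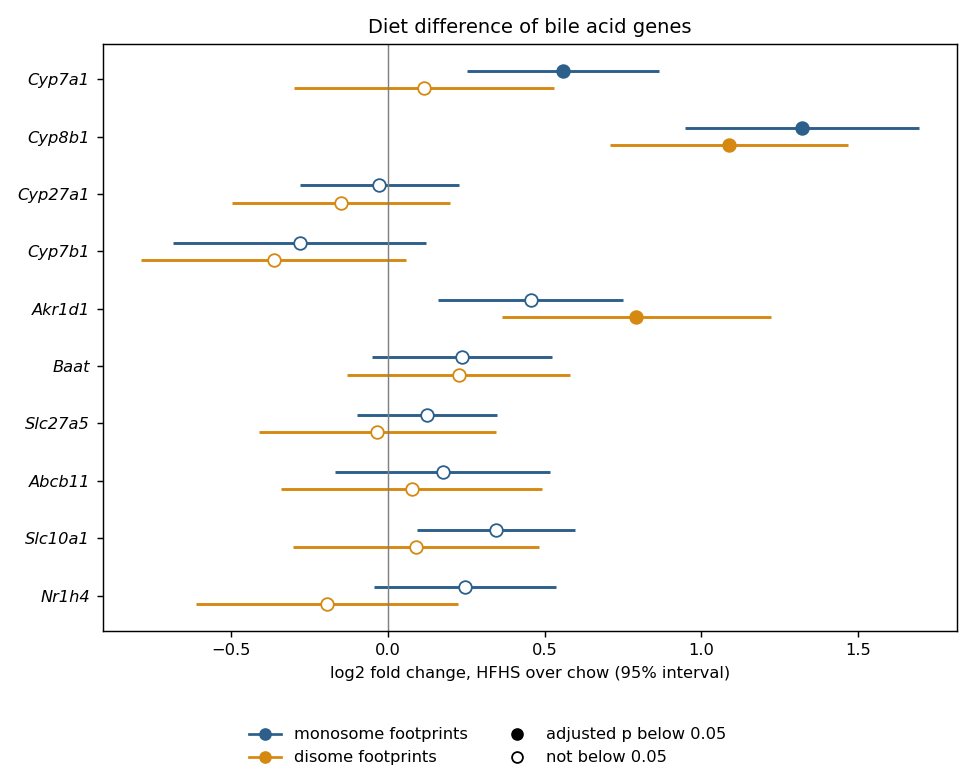
Log2 fold change of HFHS over chow for each gene in monosome and disome footprints (x axis), with 95% intervals from edgeR. Filled points have an adjusted p below 0.05: Cyp7a1 and Cyp8b1 in monosomes, Cyp8b1 and Akr1d1 in disomes.

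The same comparison in disomes asked whether stacked ribosomes on these genes differed between the diets. Cyp8b1 rose again, 2.12-fold, and Akr1d1 rose 1.73-fold. In edgeR 0 of the 10 genes fell, with 0 lower at an unadjusted p below 0.05 and 0 called lower by DESeq2. These 2 genes stand against 1.82% called higher and 1.14% called lower among 2804 genes, 2.96% in all. The median log2 fold change was 0.083 over the 10 genes and -0.025 over all genes tested.

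Cyp8b1 had 831 and 1016 CPM in the HFHS disome libraries P and R, against 570, 460 and 305 CPM in the chow libraries K, L and M. The groups did not overlap, and K was again the highest chow library. The log2 fold change was 1.09 ± 0.19, with edgeR adjusted p = 3.77e-06, and ranked 25th from the highest of 2804. It was 1.27 without K (adjusted p = 0.0002). The call was weakest without M (0.85, edgeR adjusted p = 0.0219) and with all 11 libraries in 1 fit (1.14, edgeR adjusted p = 0.0243).

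Akr1d1 had 357 and 325 CPM in HFHS disomes (P, R), against 164, 196 and 217 CPM in chow disomes (K, L, M). These levels rest on 77 and 70 counts in HFHS and on 21, 43 and 57 counts in chow. The groups did not overlap, and the log2 fold change was 0.79 ± 0.22 (edgeR adjusted p = 0.0147). The call was lost without any 1 of the 3 chow libraries, at adjusted p = 0.117 without K, 0.0955 without L and 0.0595 without M. Leaving out an HFHS library left an arm of 1, assumed to vary like the chow libraries, which alone then gave the spread, and the adjusted p was 0.178 without P and 0.0564 without R. It was also lost with DESeq2 (adjusted p = 0.317) and with no filter (adjusted p = 0.0542).

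Cyp7a1 had 232 and 408 CPM in HFHS disomes (P, R), against 297, 301 and 290 CPM in chow disomes (K, L, M). The chow libraries lay close together, and the HFHS libraries lay one below and one above them. The log2 fold change was 0.12, with an interval of -0.30 to 0.53. With P as the only HFHS library it was -0.34, and with R as the only one it was 0.48.

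Of the other enzymes, Cyp27a1 averaged 1121 ± 114 CPM in HFHS disomes (n = 2) and 1243 ± 89.2 CPM in chow disomes (n = 3), with a log2 fold change of -0.15 (interval -0.50 to 0.20). Cyp7b1 averaged 281 ± 68.8 CPM in HFHS disomes and 356 ± 71.2 CPM in chow disomes (-0.36, interval -0.79 to 0.058). Neither passed, and the libraries of both genes overlapped between the diets.

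Baat had 956 and 1007 CPM in HFHS disomes (P, R), against 867, 926 and 731 CPM in chow disomes (K, L, M). Its groups did not overlap, but the log2 fold change of 0.23 ± 0.18 did not pass (edgeR adjusted p = 0.656). Slc27a5, Abcb11, Slc10a1 and Nr1h4 had log2 fold changes of -0.033, 0.076, 0.090 and -0.19 in disomes, each with an interval that held 0 and with libraries that overlapped between the diets. Abcb11 spread most among the chow libraries, at 187 CPM in K, 419 in L and 335 in M, around HFHS levels of 330 and 357 CPM. The HFHS and chow disome libraries did not overlap for 3 of the 10 genes, where they did not for 28.2% of all genes tested.

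Some barcodes occurred in both classes, and no label says whether a barcode stands for 1 animal. The chow barcode with the highest level was the same in disomes and monosomes for 8 of 10 genes, and the chow barcode with the lowest level for 6 of 10. L was that highest barcode for Cyp7a1, Cyp27a1, Baat, Slc27a5 and Abcb11, so the first count partly reflects 1 library. The share over all genes was not counted. For Cyp8b1 the chow order was K, L, M in both classes. Of the 2 HFHS barcodes found in both classes the higher was the same for 9 of 10 genes, but R was the higher for 9 of 10 in monosomes and 8 of 10 in disomes, so this count mostly reflects 1 library. Whether the disome and monosome values of Cyp8b1 come from separate livers is therefore not known here.

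Whether disomes responded to diet differently from monosomes was tested in 1 model over all 11 libraries. None of the 10 genes passed in edgeR, where 0.00% of 7236 genes were called. Of the 10 genes, 0 had an unadjusted p below 0.05 in edgeR and 0 in DESeq2. Over all genes 358 did in edgeR and 196 in DESeq2, and DESeq2 called 0. The diet effect in disomes minus that in monosomes was -0.16 on the log2 scale for Cyp8b1, with a 95% interval of -0.84 to 0.51. For Cyp7a1, which passed in monosomes and not in disomes, it was -0.36 (interval -0.92 to 0.19). For Akr1d1, which passed in disomes and not in monosomes, it was 0.43 (interval -0.093 to 0.96). Each interval holds 0 and is wide, so the diet responses of these 3 genes in the footprint classes were neither told apart nor shown to be alike.

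The balance among the hydroxylases was read from count ratios within each library, which do not depend on scaling. The ratio of Cyp8b1 to Cyp7a1 sets the hydroxylase of cholic acid synthesis against the first enzyme of the classic route. Those of Cyp8b1 and Cyp7a1 to Cyp7b1 set each against an enzyme of the alternative route. Flow along the routes was not measured. In monosomes Cyp8b1 had 8.90, 9.71 and 9.55 counts per Cyp7a1 count in HFHS (P, Q, R), against 7.62, 4.86 and 4.54 in chow (K, L, M). In disomes it had 3.58 and 2.49 in HFHS (P, R), against 1.92, 1.53 and 1.05 in chow. The ratio was thus higher in every HFHS library than in any chow library of its class, by 1.70-fold in monosomes and 2.05-fold in disomes on average over log2 ratios (exact permutation p = 0.1 for each, two-sided). K was the chow library nearest to HFHS in both classes.

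Cyp8b1 over Cyp7b1 was 4.38, 7.84 and 4.09 in HFHS monosomes, against 2.86, 1.56 and 1.10 in chow monosomes, a 3.06-fold difference (exact permutation p = 0.1). In disomes it was 3.58 and 3.08 in HFHS, against 1.78, 1.49 and 0.696 in chow, a 2.71-fold difference (exact permutation p = 0.1). Cyp7b1 over Cyp7a1 went the other way, at 2.03, 1.24 and 2.33 in HFHS monosomes, against 2.67, 3.11 and 4.11 in chow monosomes, a fold of 0.556 (exact permutation p = 0.1). In disomes it was 1.00 and 0.807 in HFHS, against 1.08, 1.03 and 1.51 in chow, a fold of 0.755 (exact permutation p = 0.2). The groups did not overlap in any of these 6 relations. How often they do not for other pairs of genes was not counted, so this count has no background to stand against. The smallest p these group sizes allow is 0.1, and adjusted over the 6 relations the p-values were 0.12 for 5 of them and 0.2 for the last, so none passed. The 6 relations share genes and libraries, and the genes were paired with their values known.

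**Figure D3:**
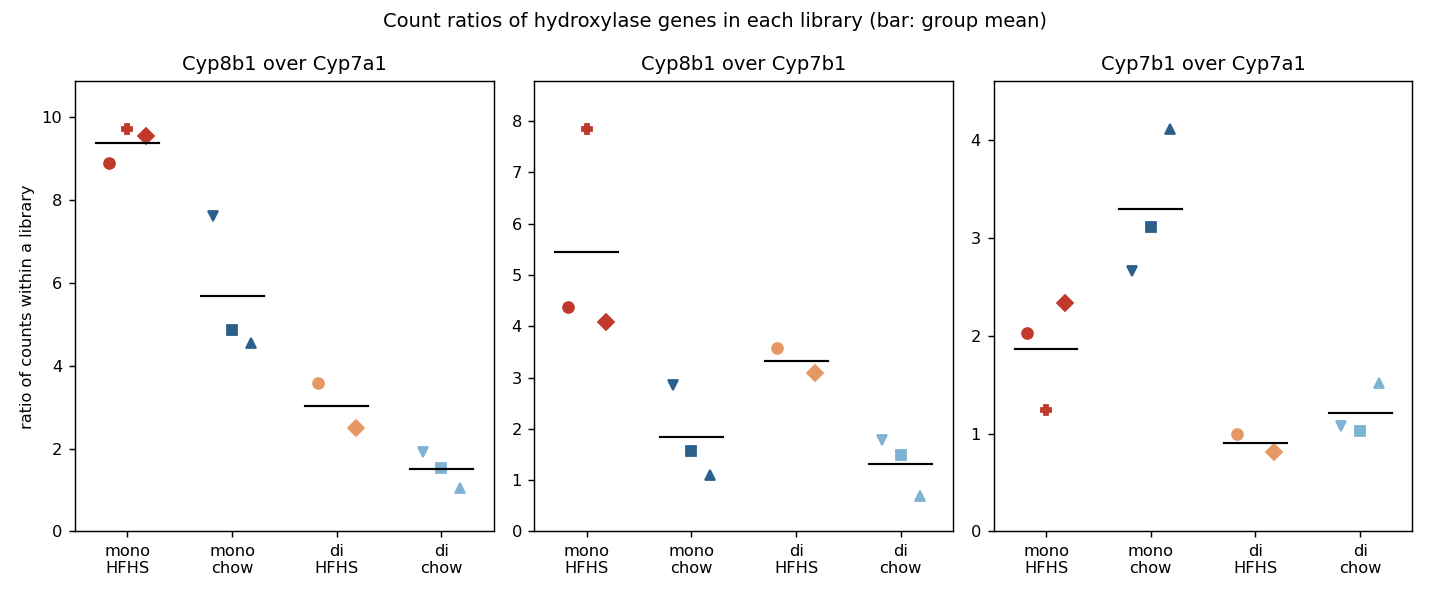
Ratio of the counts of 2 genes within each library (y axis, from 0), for HFHS and chow monosomes (mono) and HFHS and chow disomes (di). Each point is 1 library, with the marker shapes used for barcodes in the plot of levels, and bars are group means. Ratios of Cyp8b1 to Cyp7a1 lie at 8.90 to 9.71 in HFHS monosomes and at 4.54 to 7.62 in chow monosomes.

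Together the 10 genes took 0.597% to 0.702% of HFHS monosome counts and 0.513% to 0.552% of chow monosome counts. Without Cyp8b1 the remaining 9 genes took 0.468% to 0.539% in HFHS monosomes and 0.437% to 0.487% in chow monosomes. The shares of the 10 therefore did not overlap between the diets, and those of the 9 did. In disomes the 10 genes took 0.4895% and 0.5631% in HFHS and 0.4436% to 0.4902% in chow, so these shares overlapped. Without Cyp8b1 the 9 genes took 0.414% and 0.471% in HFHS disomes and 0.394% to 0.449% in chow disomes, which overlapped too.

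The last comparison set disomes against monosomes within each diet and asked on which of these genes stacked ribosomes were more or less frequent than their monosome level would give for the average gene. Genes of the pathway lay on both sides: Cyp7a1, Baat and Nr1h4 were richer in disomes, and Slc27a5, Cyp8b1 and Slc10a1 were poorer in them, in HFHS and in chow. Of the 10 genes, 3 were called higher and 3 lower in HFHS, where 11.5% and 13.6% of 7437 genes were. In chow 3 were higher and 3 lower, where 21.6% and 23.3% of 4713 genes were. Many genes of this table differ in this ratio: 1864 of 7437 genes were called in HFHS (25.1%) and 2114 of 4713 in chow (44.9%). The filter kept more genes in HFHS, so these shares are not comparable between the diets. In chow 6 of 10 lies near the background, and whether the 10 genes depart from it in HFHS was not tested. Disomes and monosomes were cut from the gel as separate size ranges, so size selection and footprint class cannot be told apart. Each diet was scaled in a fit of its own, so ratios are compared between diets only through the model over all 11 libraries. The ratios also depend on the filter: with no filter each log2 ratio of the 10 genes was lower in chow. That of Cyp7a1 was then 0.91 rather than 1.08, and that of Cyp27a1 0.083 rather than 0.26.

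Slc27a5 had the lowest ratio of the 10. It averaged 574 ± 134 CPM in HFHS disomes (n = 2) and 1938 ± 207 CPM in HFHS monosomes (n = 3), a log2 ratio of -1.76 ± 0.16 (edgeR adjusted p = 9.83e-10). In chow disomes it averaged 618 ± 99.9 CPM, against 1905 ± 20.7 CPM in chow monosomes (SD, n = 3 each), for a log2 ratio of -1.62 ± 0.14 (edgeR adjusted p = 6.43e-12). Within single barcodes its disome level was 0.271 and 0.308 of its monosome level in HFHS (P, R) and 0.285, 0.383 and 0.305 in chow (K, L, M).

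Baat, the partner of Slc27a5 in conjugation, lay on the other side. Its disome level was 2.27 and 2.05 times its monosome level in HFHS (P, R) and 2.08, 2.19 and 2.16 times in chow (K, L, M). Within each diet the values lay close together, with log2 ratios of 1.10 ± 0.15 in HFHS (edgeR adjusted p = 1.16e-06) and 1.10 ± 0.15 in chow (edgeR adjusted p = 1.36e-07).

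Nr1h4 had ratios of 1.65 and 1.88 in HFHS (P, R) and 1.97, 2.23 and 2.46 in chow (K, L, M). Its log2 ratio was 0.76 ± 0.20 in HFHS (edgeR adjusted p = 0.00547) and 1.18 ± 0.18 in chow (edgeR adjusted p = 9.79e-07). Without the disome library R the HFHS value was 0.57 (adjusted p = 0.143), with P as the only disome library and the spread taken from the monosome libraries alone. The difference between the diets did not pass in the model over all libraries (-0.34, interval -0.88 to 0.19).

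Cyp7a1 had ratios of 1.33 and 2.02 in HFHS (P, R) and 2.31, 1.92 and 2.21 in chow (K, L, M). Its log2 ratio was 0.66 ± 0.21 in HFHS (edgeR adjusted p = 0.0234) and 1.08 ± 0.17 in chow (edgeR adjusted p = 3.58e-06). Without the disome library R the HFHS value was 0.16 (adjusted p = 0.736), again with an arm of 1 and the spread of the monosome libraries alone. It also missed the threshold without the monosome library P (0.57, adjusted p = 0.0729), with DESeq2 (adjusted p = 0.0709) and with no filter (adjusted p = 0.0502).

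Cyp8b1 had ratios of 0.535 and 0.525 in HFHS (P, R) and 0.581, 0.604 and 0.512 in chow (K, L, M). Its log2 ratio was -1.05 ± 0.16 in HFHS (edgeR adjusted p = 1.32e-05) and -0.84 ± 0.20 in chow (edgeR adjusted p = 0.00209). Slc10a1 had ratios of 0.603 and 0.546 in HFHS and 0.755, 0.582 and 0.736 in chow. Its log2 ratio was -0.78 ± 0.15 in HFHS (edgeR adjusted p = 0.000208) and -0.55 ± 0.15 in chow (edgeR adjusted p = 0.0025).

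The remaining genes, Cyp27a1, Cyp7b1, Akr1d1 and Abcb11, did not pass in either diet. Cyp27a1 had log2 ratios of 0.16 in HFHS (interval -0.13 to 0.44) and 0.26 in chow (interval -0.016 to 0.54). Cyp7b1 had -0.41 in HFHS (interval -0.87 to 0.047) and -0.35 in chow (interval -0.70 to 0.0078). Akr1d1 had 0.33 in HFHS (interval -0.030 to 0.68) and -0.027 in chow (interval -0.40 to 0.34), and Abcb11 had 0.32 in HFHS (interval -0.049 to 0.69) and 0.40 in chow (interval -0.12 to 0.92).

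With the sample barcode as a block in chow, 3 of these 4 passed as well: Cyp27a1 at 0.26 (edgeR adjusted p = 0.0193), Abcb11 at 0.40 (adjusted p = 0.0145) and Cyp7b1 at -0.38 (adjusted p = 0.0113). That paired fit called 9 of the 10 genes, 5 higher and 4 lower, where it called 49.6% of all genes, 24.3% higher and 25.3% lower. The case for pairing chow libraries by barcode rests mainly on library K. Cyp7b1 also passed in chow without the K libraries of both classes (-0.50, adjusted p = 0.0401), without the monosome library K alone (-0.56, adjusted p = 0.00814), without the disome library M (-0.57, adjusted p = 0.0199) and with no filter (-0.54, adjusted p = 0.0217). Abcb11 passed without the disome library K (0.58, adjusted p = 0.0122).

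**Figure D4:**
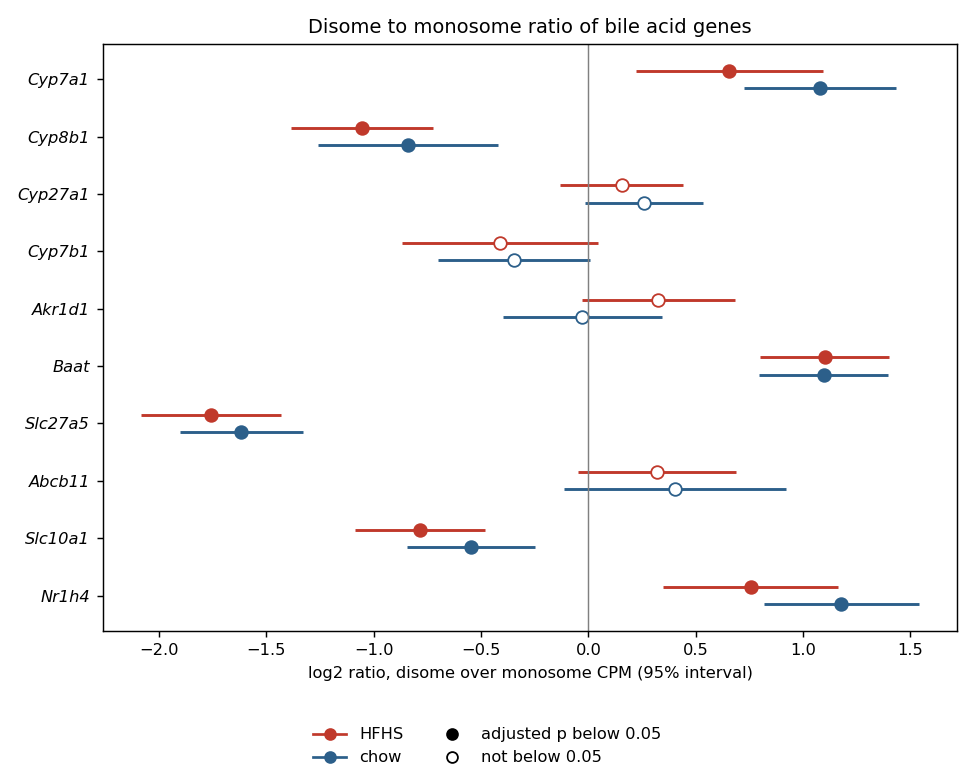
Log2 ratio of disome to monosome level for each gene in HFHS and in chow (x axis), with 95% intervals from edgeR fits without a block. Filled points have an adjusted p below 0.05. Cyp7a1, Baat and Nr1h4 lie above 0 and Cyp8b1, Slc27a5 and Slc10a1 below 0 in each diet.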

How the data were processed

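Monosome and disome footprints of mouse liver were counted per gene. The deposited table holds raw counts as the authors made them, whole numbers with no normalization, in 11 columns. Cutadapt 3.5 and Bowtie2 are named in the submitters' processing notes. Genome build, annotation, strand setting and the handling of molecular identifiers were not given in the sources used here. Columns were assigned to groups by the class and diet in their names, and told apart within a group by sample barcode, since replicate numbers are absent there.

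The test was that of edgeR 4.0.16, run in R 4.3.3, after filterByExpr with a minimum count of 10 and TMM normalization. The robust quasi-likelihood F-test was two-sided, with Benjamini-Hochberg adjustment over all genes tested and a threshold of 0.05. Standard errors are the size of the log2 fold change divided by the square root of F, and intervals are 95% intervals from the same fit. Other settings included DESeq2 1.42.0, other filters and normalizations, and leaving out each library. The fits were also run on simulated counts with known changes, with the outcome not given here. Those counts held no outlying library like K and no link between barcodes, so they cannot show how either affects the calls. The 10 genes, the lists and the pairs of genes set against each other were chosen with earlier results of these data known, and the promoter motifs were chosen with the sequences in view. All 10 genes are named by rule. The other pathway, transporter, regulator and cell type lists are given by symbol, and 0 of 22019 identifiers matched the RefSeq table, so they were not analysed here.

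Whether disome and monosome libraries that share a barcode depart alike from their group means was checked over 2156 genes. In chow they did with library K included (r = 0.69 to 0.86 for 3 pairs), and r was 0.26 without K. The ratio in chow was also fitted with the barcode as a block. In HFHS the 2 shared barcodes gave r = 0.085 and 0.29, and no pairing was assumed. The chow value without K lies between these, so the case for pairing in chow rests mainly on K.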

Additional observations from a re-analysis of the deposited data

How the results depend on the processing

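The rise of Cyp8b1 in HFHS over chow passed under every alternative run, at 1.16 to 1.50 on the log2 scale in monosomes and 0.85 to 1.27 in disomes. The count of the 10 genes higher in HFHS monosomes was 1 with a minimum count of 50 and 1 with all 11 libraries in 1 fit, and 1 to 3 when each library was left out. In HFHS disomes it was 1 with DESeq2, 1 with no filter and 1 without any single library. The count with a higher disome ratio in HFHS was 1 to 3 when each library was left out, the lowest without the disome library R. Leaving out an HFHS disome library leaves 1, assumed to vary like the other group of its comparison. With the sample barcode as a replicate block the count in chow was 5. The block changed no call in the model of both diets and classes, and in HFHS, where no pairing was assumed, it changed that of Cyp7b1 (-0.56, edgeR adjusted p = 0.0017), which also passed there with no filter (-0.55, adjusted p = 0.031). No paired analysis was possible across diets because the columns carry no replicate numbers and the diets share no barcode.

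Of 670 values of single genes under alternatives, 598 kept direction and call, 18 lost the call, 11 gained it and 43 changed sign without a call. Slc27a5 in disomes turned to 0.054 with no filter and 0.043 with all 11 libraries in 1 fit. For the difference of the diet effects, Abcb11 turned to -0.013 with DESeq2, -0.040 with no filter, -0.032 with a minimum count of 50, -0.065 with upper quartile normalization, -0.027 with the replicate block and -0.12 without library K. Cyp7b1 turned to -0.020, -0.025, -0.064 and -0.10 with no filter, the minimum count of 50, upper quartile normalization and the replicate block, and Baat to -0.011 with upper quartile normalization. The ratio of Akr1d1 in chow turned to 0.018 with upper quartile normalization and 0.016 without library K. Leaving out each library moved these log2 values across 0. The diet effect ran from -0.083 to 0.072 for Cyp27a1 in monosomes. In disomes it ran from -0.27 to 0.19 for Slc27a5, -0.14 to 0.31 for Abcb11, -0.011 to 0.18 for Slc10a1 and -0.34 to 0.48 for Cyp7a1. The difference of the diet effects ran from -0.28 to 0.27 for Abcb11, -0.30 to 0.24 for Cyp7b1, -0.047 to 0.16 for Baat, -0.41 to 0.020 for Cyp8b1, -0.18 to 0.063 for Cyp27a1 and -0.35 to 0.14 for Slc27a5. The ratio of Akr1d1 in chow ran from -0.17 to 0.021. Some settings moved every gene of the set the same way. With no filter each diet effect in disomes was higher, that of Akr1d1 at 0.89 rather than 0.79. With upper quartile normalization each difference of the diet effects was lower, that of Akr1d1 at 0.36 rather than 0.43. The cause of these shifts was not tested. Leaving out libraries from the 6 count ratios of gene pairs, an alternative chosen after seeing the data, could not turn their direction, since the groups do not overlap, and says nothing of their stability. Disome counts of 21 to 304 per gene limit what could be detected there.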
